A study of Mus musculus with 9 samples.

Results

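The aquaporins are the family of membrane channels that carry water and, in some members, glycerol and other small uncharged solutes. The 7 genes Aqp1, Aqp3, Aqp4, Aqp7, Aqp8, Aqp9 and Aqp11, of 19938 genes measured on liver arrays, were chosen by name and by the log2 level of the brightest probe set. Each of them had a single probe set, so brightness decided nothing. The list itself was drawn up with earlier results of these data known, so its counts of calls are a description and no independent evidence. The other 5 genes of the family on the array (Mip, Aqp2, Aqp5, Aqp6 and Aqp12) are given beside them, so that all 12 are accounted for.

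Livers of 9 mice were profiled, 1 array per animal, in 3 groups of 3. Wild-type mice were C57BL/6J. Clock mutants carried Clock-D19, an allele whose product still binds BMAL1, its partner, yet is a weak activator of its target genes. Rescue mice were Clock-D19 mutants too, and at week 10 had been given 35 µg of a WT-Clock plasmid in the pLIVE vector. It was delivered by hydrodynamic injection into the tail vein, a route that reaches mainly hepatocytes. In all 3 groups a high-fat diet (45%) was fed for 5 weeks from 10 weeks of age under 12 h of light and 12 h of dark, and the mice were killed at ZT10, which is 10 h after lights on. No group on ordinary chow, no other hour and no control injection is described in the labels, and the sex of the animals is not given there. The comparisons ask which aquaporins differ in liver when CLOCK is defective, and which of those differences are seen after wild-type Clock is supplied.

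An aquaporin has a pore formed around a pair of short conserved Asn-Pro-Ala motifs, and water follows the osmotic gradient through it. The aquaglyceroporins, to which Aqp3, Aqp7 and Aqp9 belong, also pass glycerol. In liver, Aqp9 is the glycerol entry channel of the sinusoidal face of hepatocytes, Aqp8 sits in hepatocyte vesicles and in the canalicular membrane where bile is formed, and Aqp1 is known from endothelium and bile duct epithelium. Aqp11 is an intracellular member of the endoplasmic reticulum with a divergent pore motif. CLOCK and BMAL1 bind the E-box, a short motif in the control regions of clock-driven genes.

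The 250 bases before the start of Aqp8 and Aqp11 are shown because these were the genes of the family that differed between groups. Windows from RefSeq (GRCm38.p6) were used for 6 of the 7 genes, and Aqp4 was not searched. Bases are in lower case, with capitals for a motif match.
Aqp8, chr7:123462044-123462293, plus strand: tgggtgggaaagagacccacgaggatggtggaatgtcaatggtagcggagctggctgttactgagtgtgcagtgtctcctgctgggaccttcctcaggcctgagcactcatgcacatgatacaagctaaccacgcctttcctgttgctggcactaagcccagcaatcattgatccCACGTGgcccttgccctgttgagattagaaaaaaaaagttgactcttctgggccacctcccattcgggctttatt
Aqp11, chr7:97738248-97738497, minus strand: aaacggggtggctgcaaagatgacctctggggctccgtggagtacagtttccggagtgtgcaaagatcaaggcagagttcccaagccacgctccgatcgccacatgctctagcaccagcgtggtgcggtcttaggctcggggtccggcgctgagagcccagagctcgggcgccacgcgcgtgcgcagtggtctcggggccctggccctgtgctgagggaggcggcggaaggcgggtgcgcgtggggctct

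Both strands of 8 such windows of the 6 genes were searched for the E-box CACGTG, its variant CACGTT, the D-box TTATGTAA and the REV-ERB and ROR element (AANT followed by AGGTCA). None of these motifs contains another. The Aqp8 window held a CACGTG, at 75 to 70 bases before the start, a motif found in 6.02% of 32851 windows of the same length. One of the Aqp9 windows held CACGTT on the opposite strand (3.85% of windows), and the windows of Aqp1, Aqp3, Aqp7 and Aqp11 held none of the 4 motifs. TTATGTAA was present in 0.819% and the REV-ERB and ROR element in 0.177% of windows. These are letter matches and no binding was measured.

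Values below are log2 expression after RMA, the array method that corrects background, equalises the distribution over arrays and summarises probes. Olfactory receptor genes, which liver is not expected to express, mark the dim end of the scale: over 1027 of them the 95th percentile lay between 5.74 and 6.04 on the 9 arrays. Of the 7 listed aquaporins 6 lay above that percentile on all 9 arrays, and Aqp7 on 1. The median of all probe sets was 5.97 to 6.08 on these arrays, so a place above the percentile does not by itself show expression in liver. Because probe sets differ in brightness, levels were compared between groups within a gene, and no gene was ranked against another. All 12 measured hepatocyte markers lay above the olfactory percentile on every array.

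Aqp8 was the most changed member. Its log2 level was 6.17, 6.18 and 6.59 in wild type, 8.19, 7.69 and 7.54 in Clock mutant, and 7.93, 7.10 and 7.48 in rescue livers. Every mutant and every rescue array lay above every wild-type array, and the rescue values overlapped those of the mutants. A lack of overlap with wild type, in either direction, was seen for 35.7% of all genes in mutant and 19.5% in rescue. Group means were 6.31 ± 0.24 (SD, n = 3), 7.81 ± 0.34 and 7.50 ± 0.41. The wild-type values lay close to the olfactory percentile, and RMA compresses differences at the dim end. In whole liver, fewer cells of a type cannot be told apart from less RNA per cell, here and for every gene below.

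Aqp8 rose in Clock mutant livers by 1.498 ± 0.20 on the log2 scale (SE), which is 2.82-fold (limma, adjusted p = 2.79e-04, n = 3 per group). In rescue livers it was 1.19 ± 0.20 above wild type, or 2.28-fold (limma, adjusted p = 0.00492). The rescue minus mutant difference was -0.31 ± 0.20, with a 95% interval of -0.73 to 0.12 (limma, adjusted p = 0.4). That interval allows a fall of up to 0.73 and a rise of 0.12, so neither a partial return nor its absence was shown. The fall of 0.73 is short of the 1.498 gained in the mutants.

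Aqp11 changed in the opposite direction. Wild-type arrays stood at 9.16, 8.996 and 9.03, Clock mutant arrays at 8.29, 8.44 and 8.55, and rescue arrays at 8.29, 8.29 and 8.60. The highest array of either other group lay below the lowest wild-type array, and mutant and rescue values overlapped. The same shares of all genes apply here, 35.7% without overlap in mutant against wild type and 19.5% in rescue against wild type. Group means were 9.06 ± 0.09 (SD, n = 3) in wild type, 8.43 ± 0.13 in Clock mutant and 8.40 ± 0.18 in rescue.

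Aqp11 fell by 0.64 ± 0.12 on the log2 scale in Clock mutant livers, to a level 1.56-fold lower (limma, adjusted p = 0.00231, n = 3 per group). It fell by 0.67 ± 0.12 in rescue livers relative to wild type, which is 1.59-fold (limma, adjusted p = 0.00674). Between rescue and mutant it differed by -0.03 ± 0.12, with a 95% interval of -0.28 to 0.22 (limma, adjusted p = 0.909). The upper end of that interval is well short of the 0.64 lost in the mutants. As it allows a rise of up to 0.22, neither a partial return nor its absence was shown here either.

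**Figure D1:**
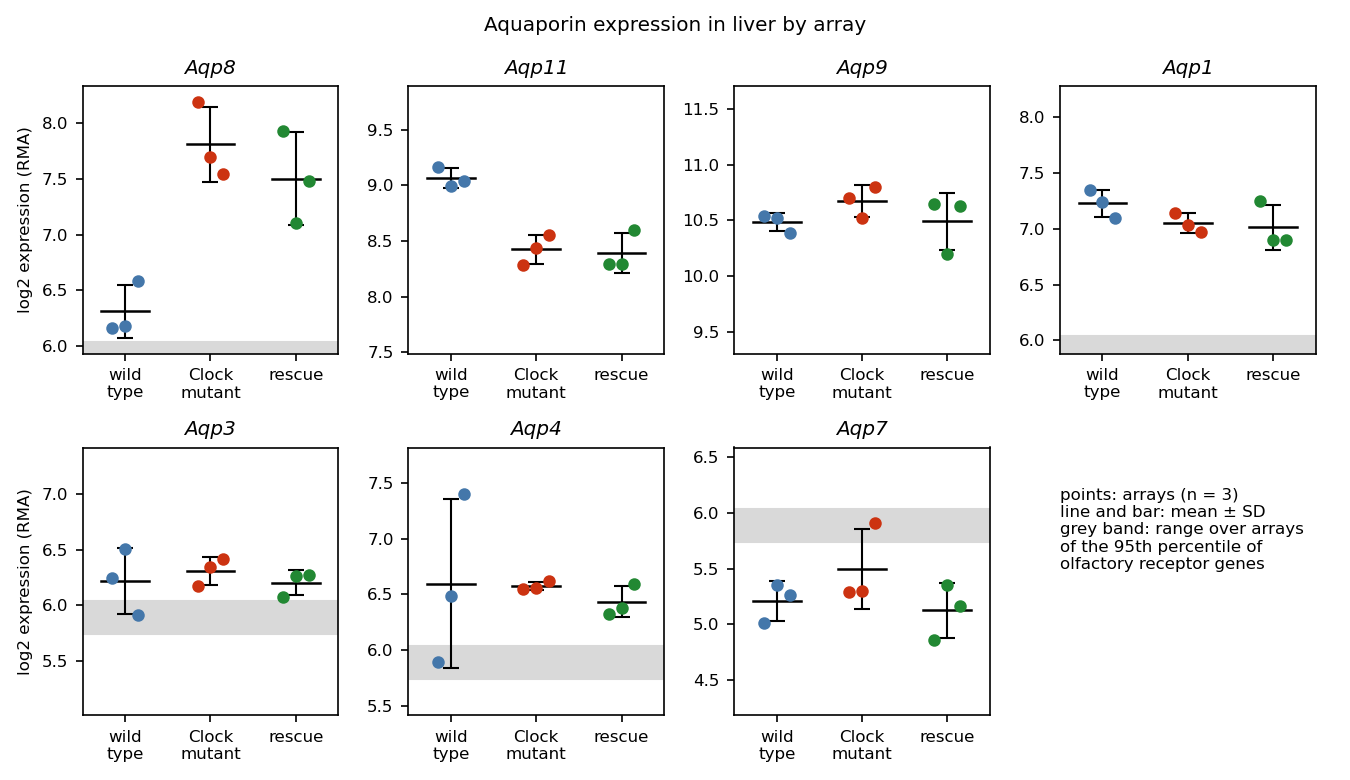
Log2 expression (RMA) of the 7 listed aquaporins on each array, by group; points are arrays, the horizontal line and bar are the mean ± SD (n = 3), and the grey band is the range over the 9 arrays of the 95th percentile of olfactory receptor genes. Aqp8 was higher and Aqp11 lower on all mutant and rescue arrays than on any wild-type array. The groups overlapped for the other 5 genes, and Aqp7 lay at or below the grey band. Of all genes, 35.7% had no overlap in mutant against wild type and 19.5% in rescue against wild type.

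Across the 7 listed genes, 2 were called in mutant against wild type at an adjusted p under 0.05, 1 in each direction, where 15.4% of all genes tested were called (6.37% higher and 9.02% lower). That split over all genes was 1270 higher and 1798 lower, and it moved to 736 and 2078 with each array centred on its median. No listed gene was called in rescue against mutant (3.81% of all genes, 2.61% higher and 1.2% lower), where Aqp7 alone had an unadjusted p under 0.05 (0.0449, limma). Calls over all genes in that comparison numbered 759, and 200 without Clock mutant replicate 1. In rescue against wild type 2 of 7 were called, again Aqp8 and Aqp11, against 2.28% of all genes (0.928% higher, 1.35% lower). The F test across the 3 groups called the same pair of genes, against 12.9% of all genes. The median difference of the 7 genes was 0.09 in mutant against wild type (0.07 over all genes), -0.14 in rescue against mutant (-0.05) and -0.08 in rescue against wild type (0.01). All 3 comparisons draw on the same 9 arrays: the first and the second share the mutant arrays, and the first and the third the wild-type arrays. Each p-value sets a difference against the spread between animals within groups. For that spread limma combined the gene's own (6 residual degrees of freedom) with a prior from all genes (8.475).

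**Figure D2:**
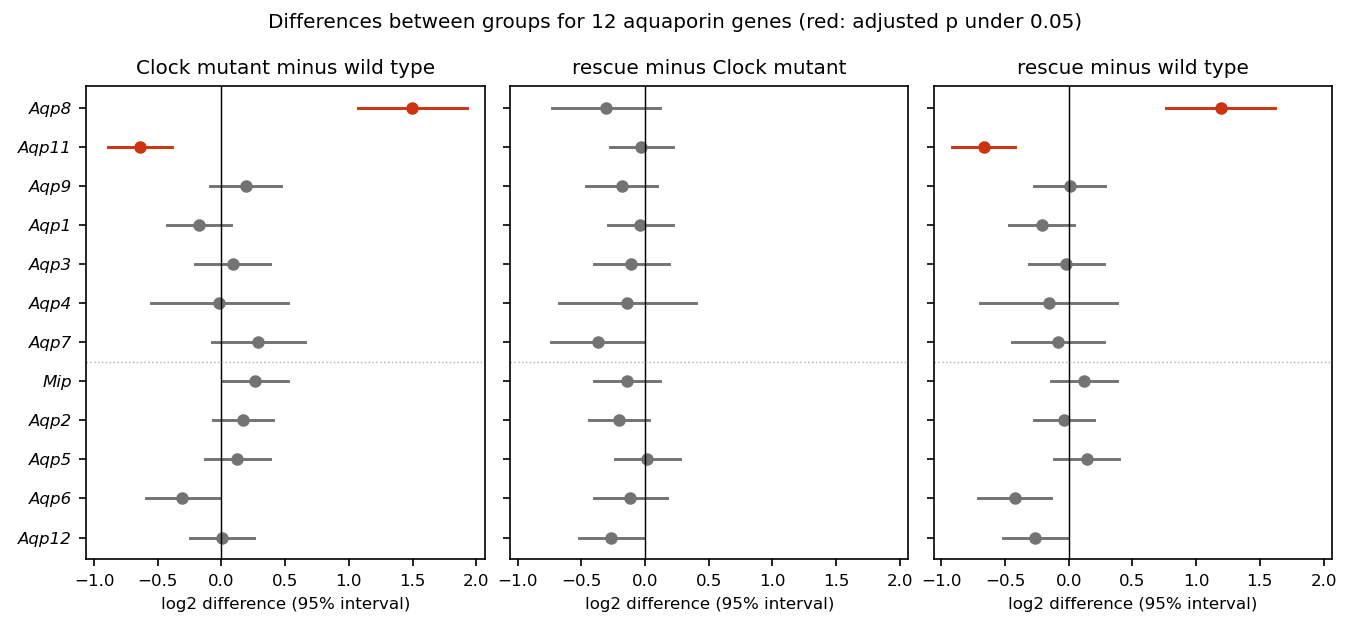
Log2 differences between groups for all 12 aquaporin genes in the 3 comparisons; points are limma estimates, lines 95% intervals, red marks an adjusted p under 0.05, and the dotted line separates the 7 listed genes from the other 5. Aqp8 at 1.498 and Aqp11 at -0.64 are the red points in mutant minus wild type, the same genes are red in rescue minus wild type, and no point is red in rescue minus mutant.

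The aquaglyceroporins gave no call. Aqp9, the hepatocyte glycerol channel, stood at 10.54, 10.52 and 10.39 in wild type, 10.70, 10.52 and 10.80 in Clock mutant and 10.65, 10.19 and 10.63 in rescue livers. All groups overlapped, and the spread within the rescue group (SD 0.26) exceeded the largest difference between group means. The mutant minus wild-type difference was 0.19 ± 0.13 with a 95% interval of -0.09 to 0.47 (limma, adjusted p = 0.337), and the rescue minus wild-type difference was 0.01 ± 0.13, with an interval of -0.27 to 0.29. A change of the size seen in Aqp8 lies outside these intervals.

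Aqp3, a glycerol and water channel of several epithelia, stood at 6.25, 6.504 and 5.91 in wild type, 6.17, 6.34 and 6.41 in Clock mutant and 6.07, 6.26 and 6.27 in rescue. Its groups overlapped, and the mutant minus wild-type difference of 0.09 ± 0.14 turned to -0.07 without wild-type replicate 3. Aqp7, the channel through which adipocytes release glycerol, stood at 5.01, 5.35 and 5.27 in wild type, 5.29, 5.30 and 5.91 in Clock mutant and 4.86, 5.35 and 5.17 in rescue. Only the 5.91 of Clock mutant replicate 3 rose above the olfactory percentile of its array, so most of these values mark no more than a dim probe set. Its rescue minus mutant difference was -0.37 ± 0.17 (95% interval -0.74 to -0.01; limma, adjusted p = 0.227), which became -0.17 without that array.

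The water-selective members Aqp1 and Aqp4 were not called either. Aqp1 stood at 7.34, 7.24 and 7.10 in wild type, 7.15, 7.03 and 6.97 in Clock mutant and 7.25, 6.90 and 6.90 in rescue livers. The wild-type mean was the highest, the groups overlapped, and the differences from wild type were -0.18 ± 0.12 in mutant (95% interval -0.43 to 0.08) and -0.21 ± 0.12 in rescue (-0.47 to 0.04). Aqp4, best known from the end-feet of astrocytes, had the widest wild-type spread of the family, at 5.89, 6.48 and 7.40 (SD 0.76). Its mutant arrays lay close together at 6.55, 6.56 and 6.62 (SD 0.04), and its rescue arrays at 6.33, 6.38 and 6.59. The mutant minus wild-type difference was -0.02 ± 0.25 and its sign depended on single wild-type arrays, with 0.39 without replicate 3 and -0.37 without replicate 1. The rescue minus wild-type difference of -0.16 likewise became 0.24 and -0.51.

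None of the other 5 aquaporins was called by limma as the data were analysed; an unadjusted p under 0.05 was seen for 2 of them in either comparison with wild type, and for 1 between rescue and mutant. Mip, the lens fibre channel, and Aqp6, a channel of kidney intercalated cells, lay below the olfactory percentile on every array. The kidney vasopressin-regulated channel Aqp2, the gland channel Aqp5 and the pancreatic Aqp12 lay above it on all 9. Aqp6 was lowest in rescue livers, with values of 4.70, 4.98 and 5.02 below the 5.51, 5.27 and 5.19 of wild type, a difference of -0.42 ± 0.13 that missed the threshold (limma, adjusted p = 0.134). Mip differed by 0.26 ± 0.12 between mutant and wild type (limma, adjusted p = 0.162), and was called only without Clock mutant replicate 3 (0.40, adjusted p = 0.0368). Values of the compared groups did not overlap for Aqp2 in mutant against wild type, nor for Mip, Aqp6 and Aqp12 in rescue against wild type, none of them called. Groups did not overlap for 35.7% of all genes in the first of these comparisons, 25.7% in rescue against mutant and 19.5% in rescue against wild type.

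The calls of Aqp8 and Aqp11 were examined under 18 other settings, each comparison at a time. In each comparison 8 of the 18 leave the estimate as it is and can move at most its error or the adjustment over genes, so 10 bear on its size. The mean of probe sets changes no aquaporin value, since each gene has 1 probe set. In mutant against wild type the Aqp8 difference ranged from 1.31 to 1.63 (adjusted p at most 0.00169) and that of Aqp11 from -0.72 to -0.57 (at most 0.0143). In rescue against wild type the ranges were 0.98 to 1.39 for Aqp8 (at most 0.0281) and -0.77 to -0.60 for Aqp11 (at most 0.0384). In rescue against mutant neither gene was called under any of the 18, with ranges of -0.52 to -0.11 for Aqp8 and -0.13 to 0.04 for Aqp11.

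**Figure D3:**
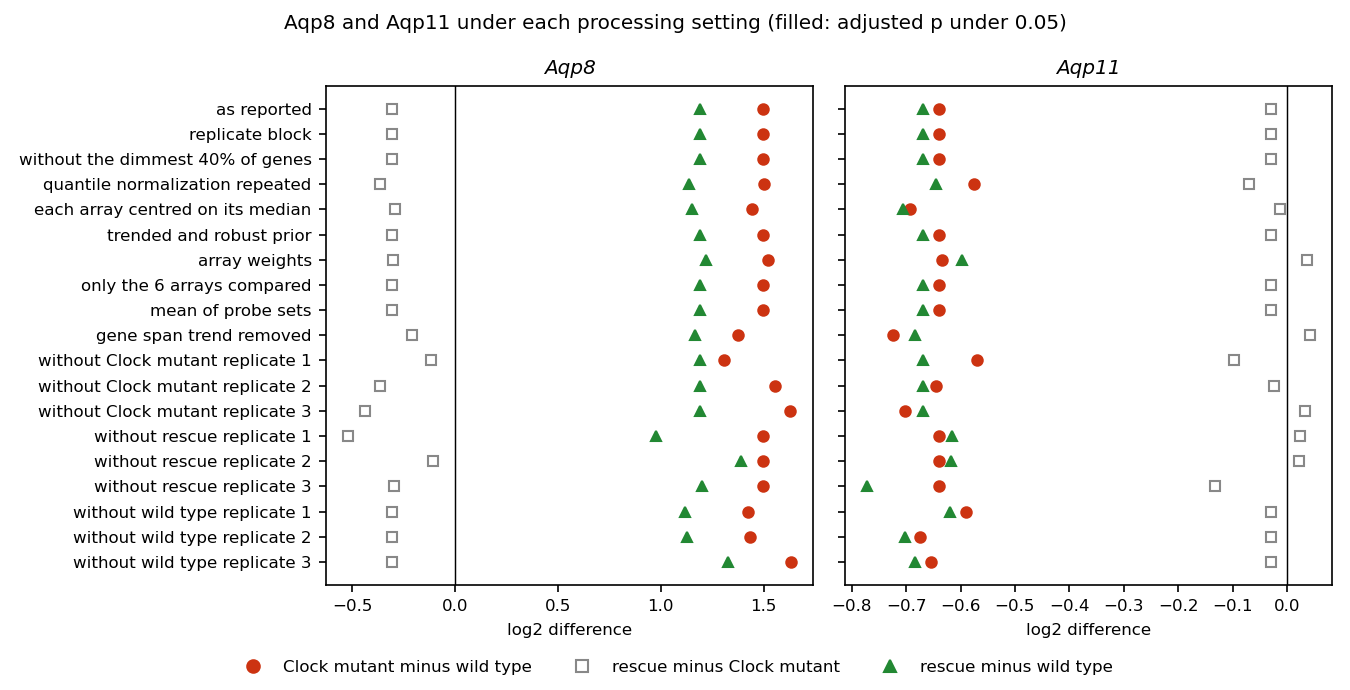
Log2 differences of Aqp8 and Aqp11 (horizontal axis) in the 3 comparisons as reported and under 18 other settings (vertical axis), with filled symbols where the adjusted p was under 0.05. The red and green symbols, which compare mutant and rescue with wild type, are filled in every row on the same side of 0, and the open grey squares of rescue minus mutant lie between -0.52 and -0.11 for Aqp8 and on both sides of 0 for Aqp11.

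The genes whose pattern over the 9 arrays lay nearest to each of these aquaporins were found by the root mean square difference of centred log2 values. Predicted and numbered genes, with names of the Gm, Rik or LOC kind, were left out of the search. Nearest to Aqp8 were Leap2, which encodes a liver antimicrobial peptide and ghrelin receptor antagonist (0.22 log2 units), the fatty acid binding protein gene Fabp5 (0.23) and S100a10, of the annexin A2 complex (0.23), where Aqp8 itself varied by 0.70. Leap2 differed by 1.29, Fabp5 by 0.995 and S100a10 by 1.21 between mutant and wild type, and by -0.31, -0.10 and -0.17 between rescue and mutant. Leap2 and S100a10, like Aqp8, had their lowest rescue value in replicate 2. This was not particular to them: Aqp9, Asgr1 and Vsig4 were also lowest on that rescue array. Aqp1 at 6.90 and Aqp11 at 8.29 on that array equalled their lowest rescue values as rounded. Without that array the Aqp8 rescue minus mutant difference was -0.11.

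Nearest to Aqp11 were Saa4, the constitutive serum amyloid A gene (0.07 log2 units), Gch1, the first enzyme gene of tetrahydrobiopterin synthesis (0.10), and the alpha-actinin gene Actn1 (0.10), where Aqp11 varied by 0.33. Their mutant minus wild-type differences were -0.66, -0.58 and -0.64, and their rescue minus wild-type differences were -0.60, -0.69 and -0.57. The 6 genes were picked for this likeness, so their differences are a description and were not tested.

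**Figure D4:**
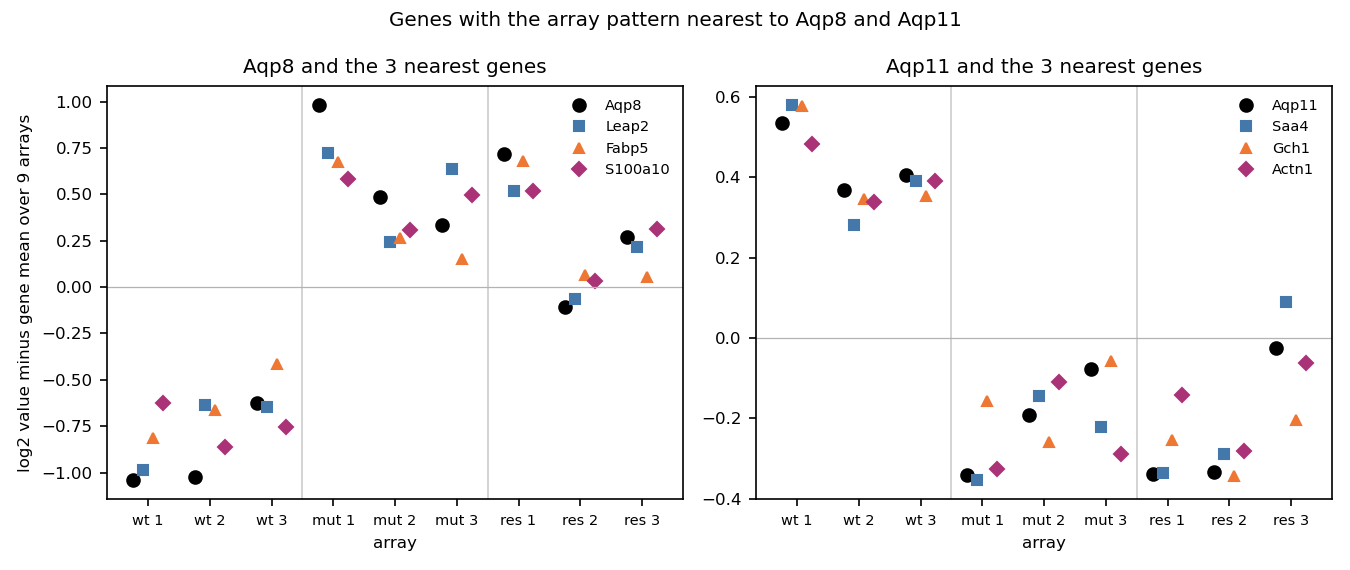
Log2 value minus the gene's mean over the 9 arrays, for Aqp8 with Leap2, Fabp5 and S100a10 and for Aqp11 with Saa4, Gch1 and Actn1; each symbol is 1 gene on 1 array, wild type (wt), Clock mutant (mut) or rescue (res). In the first panel all 4 genes are below their mean on the wild-type arrays, and in the second all 4 are above it there.

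Cell type markers were read on the same arrays. The counts of calls in every marker list below stand beside the shares over all genes. In mutant against wild type 6.37% of all genes were called higher and 9.02% lower. The shares were 2.61% and 1.2% in rescue against mutant, and 0.928% and 1.35% in rescue against wild type. Of 20 endothelial markers 11 fell and none rose in mutant against wild type, with the angiocrine factor gene Bmp2 at -1.18 ± 0.15, the VEGF receptor gene Kdr at -0.86 ± 0.11 and the Fc receptor gene Fcgr2b at -0.84 ± 0.10 (limma, adjusted p at most 2.35e-04). The list's median was -0.46, and its summed log2 level ran from 152 to 154 in wild type, 144 on each mutant array to the nearest unit, and 146 to 152 in rescue. Aqp1, the endothelial aquaporin, stood at -0.18 with an interval reaching -0.43. Between rescue and mutant 4 endothelial markers were called higher. None was called without Clock mutant replicate 1, rescue replicate 1 or rescue replicate 3. Without Clock mutant replicate 2 there was 1 call, and without Clock mutant replicate 3 there were 2. The rises themselves remained under all 18 settings, at 0.46 to 0.57 for Emcn, 0.45 to 0.55 for Ptprb and 0.39 to 0.53 for Kdr. The list's median was 0.29 (-0.05 over all genes), and 14 of the 20 had an unadjusted p under 0.05 (limma). In rescue against wild type 2 of the 20 fell, Fcgr2b by 0.57 ± 0.10 and Bmp2 by 0.75 ± 0.15 (limma, adjusted p = 0.00804 and 0.0161), and 8 had an unadjusted p under 0.05. Bmp2 was not called without rescue replicate 2 or wild-type replicate 1 or 2 (-0.76 to -0.56). All 20 lay above the olfactory percentile on every array.

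Of 15 Kupffer cell markers 9 fell in mutant against wild type, led by the complement receptor gene Vsig4 at -2.14 ± 0.13 (limma, adjusted p = 8.19e-07), with the scavenger receptor gene Cd163 at -0.94 ± 0.12 and Cd68 at -1.19 ± 0.16. In rescue against wild type 7 fell (4 without rescue replicate 2, without rescue replicate 3 or without wild-type replicate 1), among them Vsig4 at -1.04 ± 0.13, Cd163 at -0.89 ± 0.12 and Cd68 at -0.99 ± 0.16. In rescue against mutant 1 Kupffer cell marker rose and 1 fell: Vsig4 was 1.10 ± 0.13 higher (limma, adjusted p = 0.00105), a call kept under all 18 settings, and Mpeg1, a macrophage pore protein gene, 0.63 ± 0.13 lower. The call of Mpeg1 was lost without Clock mutant replicate 1 or rescue replicate 2 or 3 (-0.59 to -0.56). The summed level of the list was 109 to 116 in wild type, 101 to 102 in mutant and 102 to 106 in rescue livers, lower than wild type in both groups in which Aqp11 was lower and Aqp8 higher. Of the 15 markers 10 lay above the olfactory percentile on every array, and the list's sums and medians include the others too. Between rescue and mutant, 13 of the 15 markers were not called and the list's median was 0.17 (-0.05 over all genes). Aqp11 differed there by -0.03 and Aqp8 by -0.31. Of 12 hepatocyte markers 3 rose in the mutants, among them the asialoglycoprotein receptor genes Asgr1 (0.76 ± 0.14) and Asgr2 (0.64 ± 0.14), and none was called in rescue against mutant or wild type (limma; 2 and 1 at an unadjusted p under 0.05). The other 9 hepatocyte markers were not called in mutant against wild type, where the list's median was 0.11 (0.07 over all genes). The hepatocyte summed level was 138 to 140 in wild type, 141 to 142 in mutant and 139 to 142 in rescue. The part of the marker differences in the aquaporin differences was not tested.

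Counts of calls among markers of bile duct, fat and red cells were small, and none is read as a result about its list. Of all genes 15.4% were called in mutant against wild type, 3.81% in rescue against mutant and 2.28% in rescue against wild type. Of 10 bile duct markers 2 lay above the olfactory percentile on all arrays; 1, Tspan8, was lower in the mutants (-0.52 ± 0.16; limma, adjusted p = 0.0401), and none was called in rescue against mutant or against wild type (limma; 1 and 0 at an unadjusted p under 0.05). Tspan8 lay above the olfactory percentile on 0 of 9 arrays, and its call was lost under 6 of 17 settings, among them the omission of any 1 of 4 arrays (-0.53 to -0.34). The list's summed level was 53.0 to 54.4 in wild type, 53.2 to 55.3 in mutant and 54.0 to 55.2 in rescue. Of 7 adipocyte markers none was called against wild type in either group and 1 rose in rescue against mutant (Fabp4, 0.52, not called without any 1 of the 6 arrays compared). At an unadjusted p under 0.05 (limma) 1 differed in mutant and 3 in rescue against wild type. Their summed level was 48.2 to 49.3, 48.7 to 49.8 and 48.9 to 49.0. Only 2 red cell markers were measured, Alas2 and Slc4a1, and neither was called (limma); Alas2 alone had an unadjusted p under 0.05, in mutant against wild type and in rescue against mutant.

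**Figure D5:**
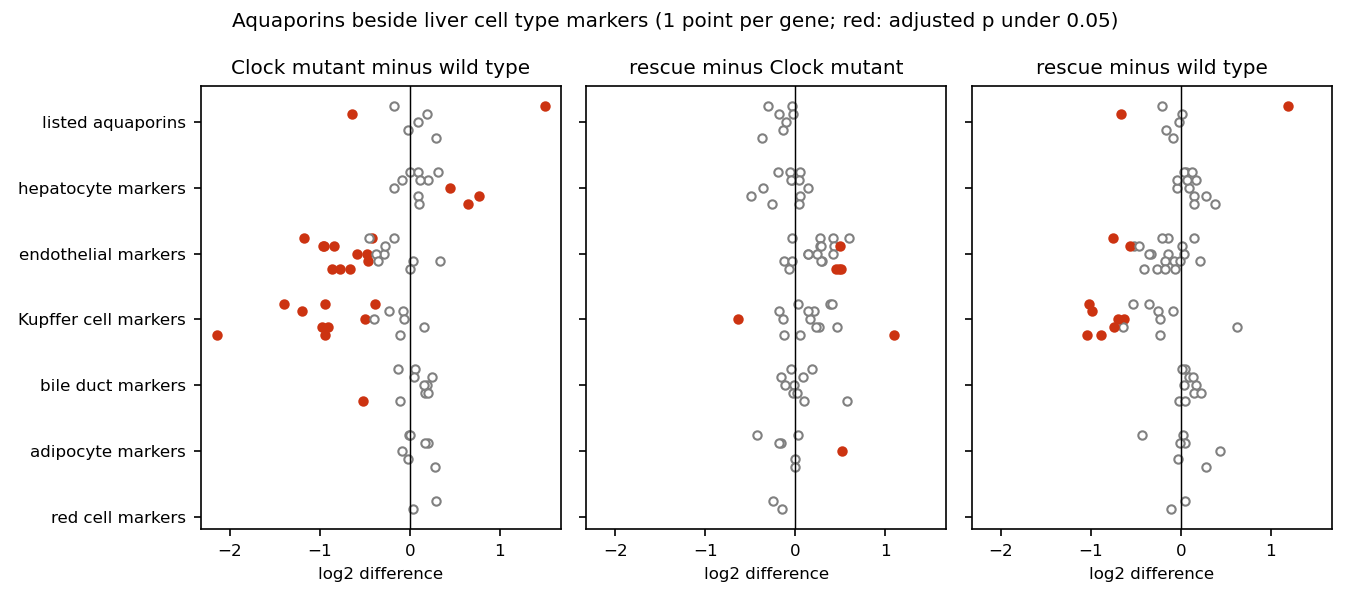
Log2 differences of the 7 listed aquaporins and of the marker genes of 6 cell types, adipocytes and red cells among them, in the 3 comparisons. Each point is 1 gene, and red marks an adjusted p under 0.05. Endothelial and Kupffer cell points lie mostly left of 0 in mutant minus wild type (medians -0.46 and -0.49), the 2 red aquaporins lie on opposite sides of 0, and few points are red in rescue minus mutant.

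Genes that work beside the aquaporins were read from 4 further lists. Their counts of calls in mutant against wild type, 2 or 3 genes a list, stand beside 15.4% of all genes called, and none is read as a result about its list. Over all genes 3.81% were called in rescue against mutant and 2.28% in rescue against wild type. Aqp8 shares the canalicular membrane with the bile transporters. Of 19 bile transport genes 1 rose and 2 fell in mutant against wild type (median -0.15), 2 rose in rescue against mutant and 2 rose in rescue against wild type. The genes called lower were Abcg2 and Slco1a1, a sinusoidal uptake transporter gene at -0.42 ± 0.13 (limma, adjusted p = 0.0451) whose call was lost under 9 of 18 settings, among them the omission of any 1 of 6 arrays (-0.42 to -0.33). The efflux pump gene Abcg2 fell by 0.77 ± 0.14 in the mutants (limma, adjusted p = 0.00185), from 9.75, 9.35 and 9.52 to 8.86, 8.49 and 8.95, and kept that call under all 18 settings. It was 0.66 ± 0.14 higher in rescue than in mutant (adjusted p = 0.0198), a call lost without Clock mutant replicate 2 or rescue replicate 2 (0.53 to 0.63, adjusted p up to 0.0708). Abcb1a, of the multidrug efflux pumps, rose by 1.30 ± 0.15 in rescue against mutant and by 0.99 ± 0.15 against wild type (limma, adjusted p = 7.96e-04 and 0.00283). Its 3 rescue arrays, at 6.24, 6.30 and 6.03, lay above the other 6, but as only 3 arrays reached the olfactory percentile the size of its rise is uncertain. Abcb11, the bile salt export pump gene, was 0.36 ± 0.10 higher in mutant and 0.41 ± 0.10 higher in rescue than in wild type, but the calls were lost without any 1 of 5 arrays (0.34 to 0.38) and any 1 of 8 arrays (0.36 to 0.44).

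Glycerol that enters through Aqp9 is phosphorylated and oxidised towards glucose or esterified. Of 12 measured genes of glycerol metabolism 1 rose and 1 fell in mutant against wild type (median 0.07), 2 fell in rescue against mutant and 1 rose in rescue against wild type. None of these 5 calls held under every setting. The glycolytic isomerase gene Tpi1 was 0.68 ± 0.16 higher in the mutants (limma, adjusted p = 0.0121; 0.58 to 0.60 and not called without Clock mutant replicate 1 or wild-type replicate 2 or 3). Pnpla2, the gene of the first triglyceride lipase, was 0.44 ± 0.14 lower (adjusted p = 0.0409), and was not called without any 1 of the 6 arrays compared (-0.51 to -0.31). The fructose bisphosphatase gene Fbp1 and the monoglyceride lipase gene Mgll were 0.54 ± 0.14 and 0.47 ± 0.11 lower in rescue than in mutant, and the glycerol phosphate dehydrogenase gene Gpd1 was 0.62 ± 0.15 higher in rescue than in wild type. Leaving out single arrays ended these calls in 8, 5 and 7 cases.

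Water movement also depends on osmolyte and ion transport. Of 18 genes of cell volume control 2 fell in mutant against wild type (median -0.10), 1 rose in rescue against mutant and none was called in rescue against wild type, where 4 had an unadjusted p under 0.05 and Nfat5 at 0.41 had the smallest (limma, adjusted p = 0.0547). Lrrc8c, a subunit gene of the volume-regulated anion channel, fell by 0.68 ± 0.13 (adjusted p = 0.00379), from 7.19, 7.03 and 7.30 to 6.63, 6.23 and 6.63. Slc12a2, the sodium, potassium and chloride cotransporter gene, fell by 0.53 ± 0.13 (not called without Clock mutant replicate 2 or wild-type replicate 3, -0.41 to -0.39). Nfat5, the osmotic stress factor gene, rose by 0.55 ± 0.10 in rescue against mutant (adjusted p = 0.0126), a call lost without Clock mutant replicate 1 or rescue replicate 3 (0.51 to 0.54).

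Aqp3, Aqp8, Aqp9 and Aqp11 have been reported to pass hydrogen peroxide. Of 15 genes of peroxide production and removal 1 rose and 2 fell in mutant against wild type (median 0.02), 1 rose and 1 fell in rescue against mutant, and none was called in rescue against wild type, where 4 had an unadjusted p under 0.05 and Cybb at -0.75 had the smallest (limma, adjusted p = 0.065). The NADPH oxidase genes Nox4 and Cybb fell by 0.75 ± 0.10 and 1.29 ± 0.20 in the mutants (limma, adjusted p = 2.86e-04 and 7.36e-04). Nox4 went from 10.06, 10.14 and 10.25 to 9.46, 9.34 and 9.40, and Cybb, the oxidase gene of phagocytes, from 8.63, 7.56 and 7.90 to 6.72, 6.66 and 6.82. Cybb was lower in the arrays in which the Kupffer cell markers were lower, and the part of those cells in it was not tested. Nox4 was 0.45 ± 0.10 higher in rescue than in mutant, a call lost without any mutant array or without rescue replicate 2 or 3 (0.42 to 0.48). The antioxidant gene Gpx4 was 0.35 ± 0.11 higher in mutant than in wild type and 0.43 ± 0.11 lower in rescue than in mutant, calls that were lost under 12 and 11 of the 18 settings.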

How the data were processed

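Liver RNA of 9 mice was labelled with biotin and hybridised to Affymetrix gene arrays. The deposited values are log2 expression per probe set, made with RMA in Affymetrix Expression Console per the submitters' processing notes, whose versions the sources used here do not give. Base 2 was inferred from their range, with a maximum of 13.86. RMA compresses differences of dim genes, and a shift shared by most genes would not be seen.

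Of 35556 probe sets 21789 had a single gene symbol in the platform annotation, 1621 several and 12146 none. Each gene was represented by its brightest probe set (largest 9-array mean), which left 19938 genes. Entrez identifiers of 21698 probe sets matched RefSeq.

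One linear model was fitted to all 9 arrays with limma 3.58.1 in R 4.3.3 (6 residual and 8.475 prior degrees of freedom), with 3 contrasts and an F test. Benjamini-Hochberg adjustment ran over all 19938 genes, and "called" means an adjusted p under 0.05. The model was also run on simulated data. How often it found small differences there is not reported here, so a gene not called may still differ. Groups came from the labels. No p-value was adjusted over the aquaporins alone, and no gene set test was run.

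The aquaporins and the gene lists were chosen with earlier results of these data known. Named were all aquaporins, up to 3 members of smallest p per list and comparison (not all are printed), and the 3 nearest genes of each aquaporin called in the F test. The search for nearest genes left out predicted and numbered genes. The lists held markers of hepatocytes, endothelium, Kupffer cells, bile duct, red cells and adipocytes, and genes of glycerol metabolism, bile transport, cell volume and peroxide handling. The other settings were the replicate number as a block, omission of the dimmest 40% of genes, repeated quantile normalization, median centring, a trended and robust prior, array weights, only the 6 arrays compared, the mean of probe sets, removal of a trend on gene span, and omission of each array. The number of arrays limits the precision. Protein sequences were not used here. Figures were drawn with matplotlib 3.10.9.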

Additional observations from a re-analysis of the deposited data

How the results depend on the processing

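The count of listed aquaporins called stayed at 2 in mutant against wild type, 0 in rescue against mutant and 2 in rescue against wild type under all 18 other settings, and at 2 in the F test under all 17 run for it; leaving out single arrays gave the same counts. Of the 18, 8 cannot move the Aqp8 or Aqp11 estimate of a given comparison, among them the mean of probe sets and the omission of an array of the group not compared. With the replicate number as a block it was also 2, 0 and 2. Same-numbered arrays correlated in their deviations at -0.11 to 0.19, so the numbers were not taken as pairs; the block moved the calls over all genes from 3068 to 3368, from 759 to 931 and from 454 to 507. Of 639 differences of the 12 aquaporins, 604 kept direction and side of the threshold, 1 became a call (Mip) and 34, none of them called, changed sign; the cause was not tested. Calls over all genes in rescue against mutant were 759 as reported, 526 with only the 6 arrays compared, 1178 without the dimmest 40% of genes, 1210 with a trended and robust prior and 1334 with array weights; in rescue against wild type they were 711 without the dimmest 40% and 704 with the trended prior, against 454. Leaving out 1 array gave 1695 (without wild-type replicate 3) to 3130 in mutant against wild type, 200 (without Clock mutant replicate 1) to 692 in rescue against mutant and 233 (without wild-type replicate 3) to 501 in rescue against wild type. With median centring 736 genes were higher and 2078 lower in mutant against wild type, against 1270 and 1798; with the gene span trend removed it was 811 and 1826. In rescue against wild type centring gave 154 higher and 374 lower against 185 and 269, and in rescue against mutant repeated quantile normalization gave 541 and 438 against 520 and 239. For the other named genes, 2423 of 2682 values kept their call and direction, and none that was called turned.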
